A study of Mus musculus with 8 samples.

Results

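The genes of nitric oxide synthesis and arginine metabolism were followed in RNA-Seq of primary murine articular chondrocytes, in 4 samples treated with IL-1β (1 ng/mL for 24 h) and 4 treated with vehicle for the same time. The 10 genes were taken by name from the 54658 gene symbols of the deposited count table: the nitric oxide synthases *Nos1*, *Nos2* and *Nos3*, the recycling enzymes *Ass1* and *Asl*, the arginases *Arg1* and *Arg2*, the cofactor enzyme *Gch1*, and the transporters *Slc7a1* and *Slc7a2*. All 10 were found. In both groups the cells came from wild-type mice aged 3 weeks, had been released with collagenase from femoral head cartilage and were grown in plates. IL-1β, an inflammatory cytokine, was the one agent by which the labels tell the groups apart. No source used here says whether the 4 samples of a group came from separate mice or separate cultures, so the p-values measure only the spread between these samples.

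Nitric oxide synthases convert arginine to citrulline and release nitric oxide. The inducible form, encoded by *Nos2*, is known as a target of IL-1 and NF-κB in cartilage, whereas *Nos1* and *Nos3* encode the neuronal and the endothelial form. All of them need tetrahydrobiopterin, whose synthesis starts with GTP cyclohydrolase 1 (*Gch1*). Arginine enters the cell through cationic amino acid transporters (*Slc7a1*, *Slc7a2*), is rebuilt from citrulline by argininosuccinate synthase (*Ass1*) and argininosuccinate lyase (*Asl*), and is also split into ornithine and urea by the arginases, cytosolic *Arg1* and mitochondrial *Arg2*.

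Total counts per sample were 10992355 to 17104351 with IL-1β and 13970959 to 17456063 with vehicle, so that 3 counts, used as the limit of detection, stood for 0.172 to 0.273 CPM (counts scaled to 1000000 per sample). A single noncoding transcript, *Gm26917*, held 13.2 to 14.6% of the counts in every sample. Of 10 chondrocyte markers, all 10 were tested, and their summed abundance was 6137 to 6663 CPM with IL-1β and 16980 to 17560 CPM with vehicle; 9 of these markers were lower and 1, *Prg4*, was higher after IL-1β. The part of this shift in the results below was not tested. Because the RNA is from bulk cultures, fewer cells of a type and less RNA per cell cannot be told apart.

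After IL-1β, *Nos2*, *Gch1*, *Slc7a2* and *Arg2* were upregulated more than 2-fold, *Ass1* and *Asl* rose by less, and *Slc7a1* decreased slightly. *Nos1*, *Nos3* and *Arg1* stayed near the limit of detection or below the filter and were not tested with the filter on low counts. After TMM scaling, the 2 groups were compared with the quasi-likelihood test of edgeR in the 14404 genes with more than 1 CPM in at least 4 samples, with Benjamini-Hochberg adjustment over all of these. A gene is called changed at an adjusted p-value under 0.05. Those that also moved by more than 1 on the log2 scale, up or down, are called differentially expressed genes (DEGs). Of the 10 genes, 7 were tested, of which 6 were higher and 1 was lower, and 4 were upregulated DEGs. Over all genes tested, 40.2% were changed, with 20.4% higher and 19.8% lower, and 5.21% were DEGs, with 2.86% upregulated and 2.35% downregulated. In each of the 7 genes the 4 IL-1β samples did not overlap with the 4 vehicle samples, which was the case for 36.8% of all genes tested. The median log2 fold change of the 7 was 1.45, against -0.0012 over all genes tested. Both counts and the median describe the genes that passed the filter, which *Arg2* did through its IL-1β samples alone, and not all 10.

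**Figure D1:**
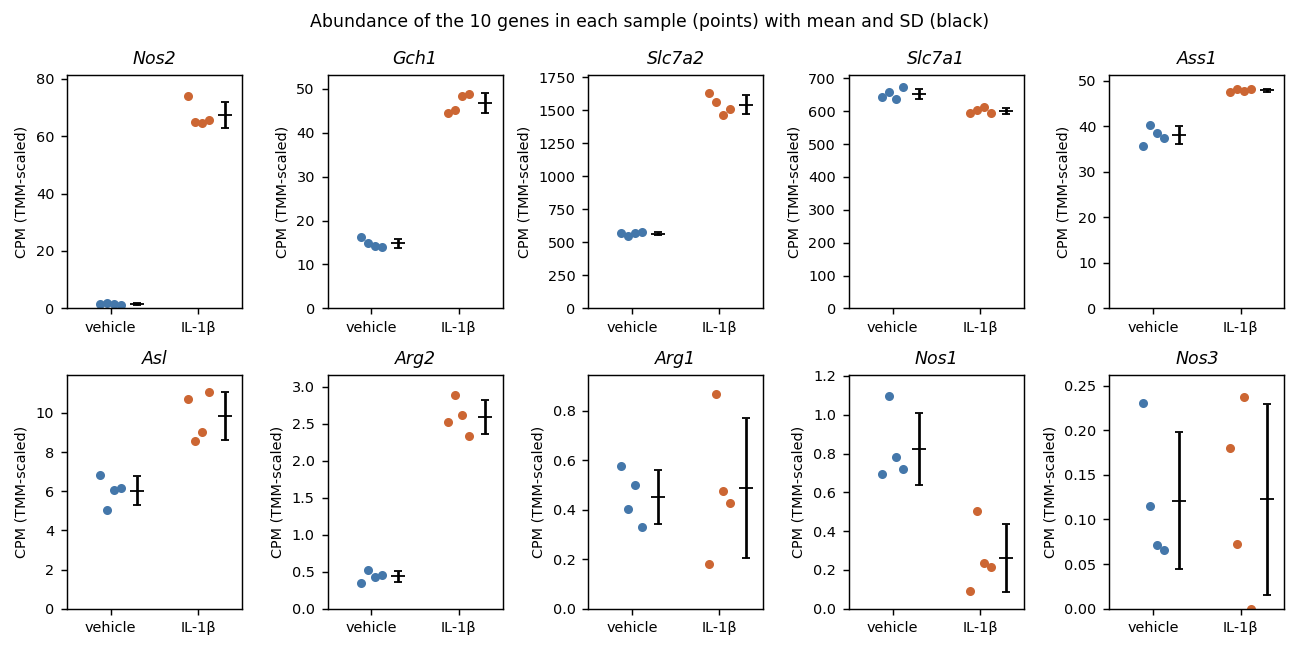
TMM-scaled CPM of the 10 genes (vertical axes, each from 0 and with its own scale) in 4 vehicle samples (blue) and 4 IL-1β samples (orange), with the mean and SD in black. *Nos2*, *Gch1*, *Slc7a2*, *Ass1*, *Asl* and *Arg2* were higher in every IL-1β sample than in any vehicle sample, and *Slc7a1* and *Nos1* were lower.

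*Nos2* (ENSMUSG00000020826.8, chromosome 11, 78920787 to 78960254, plus strand, all positions in GRCm38) had 73.9, 64.8, 64.4 and 65.6 CPM in IL-1β replicates 1 to 4. In vehicle replicates 1 to 4 it had 1.62, 1.91, 1.43 and 1.31 CPM, from 28, 33, 20 and 20 counts. The transcript was thus close to the filter of 1 CPM without the cytokine and well measured with it, and the groups were far apart. The mean was 67.2 ± 4.52 CPM (SD, n = 4) in treated samples against 1.57 ± 0.259 CPM (SD, n = 4) in controls. The log2 fold change was 5.40 (SE 0.0892 in the edgeR fit, adjusted p = 1.54e-27), a 42.1-fold rise, which was the 12th largest among the 14404 genes tested. IL-1β replicate 1, the sample with the fewest total counts, lay above the other IL-1β samples.

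The other synthases were barely measured. *Nos1* (ENSMUSG00000029361.18, chromosome 5, 117781032 to 117958840) had 1, 7, 4 and 3 counts with IL-1β and 12, 19, 11 and 11 counts with vehicle. Every IL-1β sample was lower than every vehicle sample, at 0.261 ± 0.175 CPM against 0.824 ± 0.186 CPM (SD, n = 4). It fell below the filter. In a fit without the filter, in which 17.9% of 32379 genes were changed, its log2 fold change was -1.60 (SE 0.434 in the edgeR fit, adjusted p = 0.00182). *Nos3* (ENSMUSG00000028978.12, chromosome 5, 24364810 to 24384474) had 2, 1, 4 and 0 counts with IL-1β and 4, 2, 1 and 1 counts with vehicle, at which no difference was detectable. Of its exon bases, 32.3% overlap genes annotated on the other strand, *Gm15587* and *Atg9b*, and whether the counting used strand is not given in the sources used here.

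The makeup of the synthase transcripts was compared per length, as the share of each gene in the summed counts per base. *Nos2* held 75.6 to 78.7% of the synthase transcripts in the vehicle samples and 99.5 to 99.9% in the IL-1β samples. *Nos1* held 12.8 to 17.6% with vehicle and 0.0481 to 0.307% with IL-1β. The inducible form was therefore already the most abundant synthase transcript in vehicle-treated cells, at the low level of 0.995 ± 0.18 TPM (counts per base, scaled to 1000000 per sample, SD, n = 4).

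**Figure D2:**
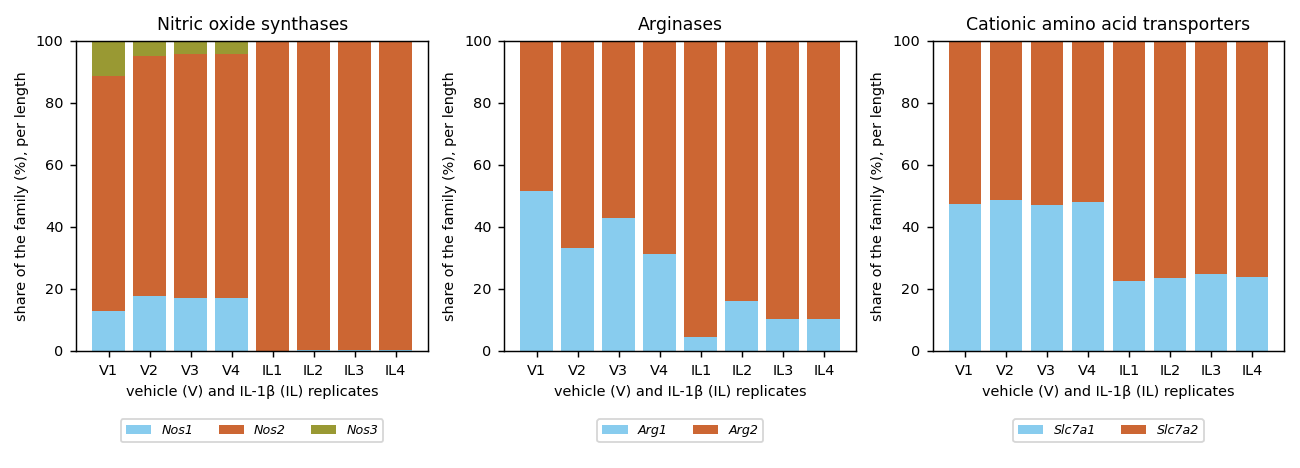
Share of each gene in the transcripts of its family (vertical axis, %, counts per base) in vehicle replicates 1 to 4 (V) and IL-1β replicates 1 to 4 (IL). *Nos2* goes from 75.6 to 78.7% to at least 99.5% of the synthases, *Arg2* from 48.4 to 68.6% to 83.9 to 95.6% of the arginases, and *Slc7a2* from 51.5 to 52.9% to 75.1 to 77.6% of the 2 transporters.

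*Gch1* (ENSMUSG00000037580.10, chromosome 14, 47153895 to 47189413, minus strand), the rate-limiting enzyme of tetrahydrobiopterin synthesis, had 44.5, 45.2, 48.4 and 48.8 CPM in the IL-1β samples. It had 16.2, 15.0, 14.1 and 14.0 CPM in the vehicle samples. The groups were separate, with means of 46.7 ± 2.18 and 14.8 ± 1.02 CPM (SD, n = 4) and a log2 fold change of 1.65 (SE 0.0582 in the edgeR fit, adjusted p = 1.21e-19). The rise was 3.15-fold.

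The promoter of *Gch1* is shown because it is the one DEG among the 10 genes with a promoter in the table used. Promoters run from 250 bases before to 50 after a start site, are those of RefSeq for GRCm38.p6 and were found for *Ass1*, *Nos1*, *Slc7a1* and *Gch1*, 4 of the 10 genes, but not for *Nos2*, *Nos3*, *Asl*, *Arg1*, *Arg2* and *Slc7a2*. Capitals mark matches to 5 motifs, searched on both strands: the NF-κB consensus, TGANTCA for AP-1, TTGCNNAA for C/EBP, TGATGNAA for the composite of C/EBP and ATF, and TATAAA. In *Gch1* (chr14:47189364-47189663, minus strand) the matches are GGGGCTCCCC at -10 to -1, which fits the NF-κB consensus on both strands, and TATAAA on the opposite strand at -188 to -183.
Gch1 promoter: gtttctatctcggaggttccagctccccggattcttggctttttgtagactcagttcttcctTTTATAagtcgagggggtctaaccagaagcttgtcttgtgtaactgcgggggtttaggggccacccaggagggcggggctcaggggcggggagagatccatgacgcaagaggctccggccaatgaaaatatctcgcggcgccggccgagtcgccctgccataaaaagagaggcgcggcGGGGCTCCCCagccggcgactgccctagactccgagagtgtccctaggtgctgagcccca
The NF-κB consensus occurs in 8.46% and TATAAA in 13.6% of the 32851 promoters of the same length. *Nos1*, which was measured at few counts, also has an NF-κB match, GGGGTTTTCC at -90 to -81 of chr5:117866589-117866888 (plus strand), a window that lies within the annotated gene, and is printed for comparison.
Nos1 promoter: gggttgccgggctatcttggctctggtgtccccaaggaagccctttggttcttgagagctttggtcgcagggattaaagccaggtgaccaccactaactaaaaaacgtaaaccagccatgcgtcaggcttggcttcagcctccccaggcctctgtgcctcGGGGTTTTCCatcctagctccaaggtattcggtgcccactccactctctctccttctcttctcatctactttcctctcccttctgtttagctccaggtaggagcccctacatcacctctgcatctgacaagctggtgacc
A match is a description of these letters and was not tied to any binding measured here. In the *Ass1* promoter (chr2:31470020-31470319, plus strand) none of the 5 motifs was found, which says only that these letters are not in that window.

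Of 7 other genes of the tetrahydrobiopterin pathway, 6 were tested, with a median log2 fold change of 0.073. None of the 6 was called higher and 1 was lower, beside 20.4% higher and 19.8% lower over all genes tested. The lower one was *Pcbd2*, a recycling enzyme, with 5.86 ± 0.52 CPM (SD, n = 4) in treated samples against 7.34 ± 1.11 CPM in controls (log2 fold change -0.32, standard error 0.122, adjusted p = 0.0402 from edgeR). That call was lost with DESeq2 (adjusted p = 0.0855) and without IL-1β replicate 1 or 2 or vehicle replicate 2 or 3 (adjusted p = 0.103, 0.0697, 0.209 and 0.0731 from edgeR). *Spr*, sepiapterin reductase, had 30.8 ± 2.45 CPM against 27.9 ± 1.42 CPM (log2 fold change 0.15, adjusted p = 0.0503 from edgeR), and it crossed the threshold when vehicle replicate 2 or IL-1β replicate 2 was left out (adjusted p = 0.0462 and 0.00774), with 1 RUVs factor (0.0349) and with more than 1 CPM required in all 8 samples (0.0487). *Gchfr*, which encodes the feedback regulator that binds GTP cyclohydrolase 1, had 2.39 ± 0.41 CPM in treated samples against 2.23 ± 0.554 CPM in controls (log2 fold change 0.07, with a 95% interval of -0.33 to 0.47, adjusted p = 0.817 from edgeR).

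*Slc7a2* (ENSMUSG00000031596.15, chromosome 8, 40862396 to 40922308), which encodes the cytokine-responsive transporter CAT2, was by far the most abundant of the upregulated genes. It had 1632, 1559, 1466 and 1511 CPM in the IL-1β samples and 568, 552, 568 and 577 CPM in the vehicle samples. The means were 1542 ± 70.9 and 566 ± 10.4 CPM (SD, n = 4), with a log2 fold change of 1.45 (SE 0.032 in the edgeR fit, adjusted p = 1.63e-24), or 2.72-fold. Per length it was the 596th most abundant of the 14404 genes tested with vehicle and the 193rd with IL-1β. Of its exon bases, 6.95% overlap a noncoding gene on the other strand, *Gm26584*.

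*Slc7a1* (ENSMUSG00000041313.14, chromosome 5, 148327410 to 148399904, minus strand), which encodes the constitutive transporter CAT1, moved the other way. It had 595, 604, 613 and 593 CPM with IL-1β and 644, 657, 638 and 673 CPM with vehicle. None of the treated samples reached the lowest control, but the step was small: the means were 601 ± 9.07 and 653 ± 15.5 CPM (SD, n = 4), with a log2 fold change of -0.12 (SE 0.0295 in the edgeR fit, adjusted p = 0.00159). The promoter of *Slc7a1* at its upstream start (chr5:148399855-148400154, minus strand) is shown beside that of *Gch1* because it is the tested gene that decreased. It holds TGACTCA, which matches the AP-1 motif on both strands, at -123 to -117, and AP-1 matches occur in 7.81% of all promoters.
Slc7a1 promoter: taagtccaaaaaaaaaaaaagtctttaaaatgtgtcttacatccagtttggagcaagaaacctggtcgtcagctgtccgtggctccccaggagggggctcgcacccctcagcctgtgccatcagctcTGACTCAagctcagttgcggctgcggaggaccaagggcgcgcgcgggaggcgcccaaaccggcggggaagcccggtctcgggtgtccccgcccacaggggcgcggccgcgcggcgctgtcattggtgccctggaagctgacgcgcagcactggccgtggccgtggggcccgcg
No match to the NF-κB consensus was found in it. A second start of *Slc7a1* (chr5:148392766-148393065, minus strand) has TATAAA at -28 to -23 and no other match.

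Per length, *Slc7a1* and *Slc7a2* were nearly level in vehicle-treated cells, at 158.5 ± 2.08 and 173.5 ± 3.98 TPM (SD, n = 4), although their samples did not overlap. With IL-1β they had 141 ± 3.8 and 458 ± 34.5 TPM. The log2 ratio of *Slc7a2* to *Slc7a1*, with 0.5 CPM added to each gene here and in all later pairs, was -0.21 ± 0.04 with vehicle and 1.36 ± 0.08 with IL-1β (SD, n = 4). The difference was 1.56 (standard error 0.0448), with no overlap between the groups (two-sided exact permutation test, p = 0.0286, adjusted p = 0.0381 over 4 pairs). The p of 0.0286 is the smallest that 4 samples against 4 allow.

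Among 10 further transporters of arginine, lysine or ornithine, 6 were tested, with a median log2 fold change of -0.07. Of these 6, 1 was higher and 2 were lower, beside 20.4% higher and 19.8% lower over all genes tested. None of the 6 was a DEG. *Slc7a3*, the CAT3 transporter, had 121 ± 4.55 CPM (SD, n = 4) in treated samples against 134 ± 5.95 CPM in controls (log2 fold change -0.15, standard error 0.0356, adjusted p = 0.00133 from edgeR). *Slc3a2*, the heavy chain that heteromeric amino acid transporters share, had 462 ± 5.11 and 457 ± 10.0 CPM (log2 fold change 0.01, adjusted p = 0.762). The other 2 changed genes were named after their values were seen, *Slc7a6* (log2 fold change 0.48) and *Slc7a7* (log2 fold change -0.50).

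*Ass1* (ENSMUSG00000076441.9, chromosome 2, 31470207 to 31520672), which joins citrulline and aspartate, had 47.6, 48.3, 47.6 and 48.2 CPM with IL-1β. With vehicle it had 35.7, 40.3, 38.6 and 37.4 CPM. The IL-1β samples lay close together and above all vehicle samples, and the log2 fold change was 0.33 (SE 0.0455 in the edgeR fit, adjusted p = 5.91e-07), or 1.26-fold.

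*Asl* (ENSMUSG00000025533.15, chromosome 5, 130011258 to 130029247), which releases arginine from argininosuccinate, had 10.7, 8.58, 9.03 and 11.1 CPM with IL-1β. With vehicle it had 6.81, 5.03, 6.06 and 6.18 CPM. The spread was wider than that of *Ass1*, but the groups did not overlap, with a log2 fold change of 0.70 (SE 0.116 in the edgeR fit, adjusted p = 1.29e-05), or 1.63-fold. The log2 ratio of *Ass1* to *Asl* was 2.23 ± 0.174 with IL-1β and 2.57 ± 0.24 with vehicle (SD, n = 4), a difference of -0.33 (standard error 0.148) that did not pass the threshold (two-sided exact permutation test, p = 0.0857, adjusted p = 0.0857).

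*Arg2* (ENSMUSG00000021125.6, chromosome 12, 79130777 to 79156301) had 28, 40, 44 and 33 counts in the IL-1β samples and 6, 9, 6 and 7 counts in the vehicle samples. This is 2.59 ± 0.227 CPM against 0.439 ± 0.0724 CPM (SD, n = 4), with no overlap between the groups. The log2 fold change was 2.54 (SE 0.25 in the edgeR fit, adjusted p = 1.55e-09), or 5.82-fold. Since it passed the filter through its IL-1β samples alone, its groups had to differ. Of its exon bases, 28.1% overlap genes on the other strand, mainly *Vti1b*, which had 44.3 ± 1.76 and 44.2 ± 1.51 CPM with IL-1β and vehicle (log2 fold change 0.00, adjusted p = 0.951 from edgeR).

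*Arg1* (ENSMUSG00000019987.9, chromosome 10, 24915221 to 24927484) had 2, 12, 8 and 6 counts with IL-1β and 10, 7, 7 and 5 counts with vehicle, 0.487 ± 0.284 against 0.452 ± 0.109 CPM (SD, n = 4). The groups overlapped, and no difference was detectable at this depth. Per length, *Arg2* made up 48.4 to 68.6% of the arginase transcripts with vehicle and 83.9 to 95.6% with IL-1β, while both arginases together had 2.70 to 3.75 CPM with IL-1β and 0.789 to 0.927 CPM with vehicle.

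The order of the genes by level per length was the same in both groups but for *Nos2*, which moved up, and for *Nos1* and *Nos3* at the bottom. With vehicle the order was *Slc7a2*, *Slc7a1*, *Ass1* (44.0 TPM), *Gch1* (6.64 TPM), *Asl* (3.49 TPM), *Nos2* (0.995 TPM), *Arg2* (0.858 TPM), *Arg1* (0.571 TPM), *Nos1* (0.207 TPM) and *Nos3* (0.0825 TPM). The samples of *Nos2* and *Arg2*, and those of *Arg2* and *Arg1*, overlapped there. With IL-1β the order was *Slc7a2*, *Slc7a1*, *Ass1* (53.8 TPM), *Nos2* (41.3 TPM), *Gch1* (20.2 TPM), *Asl* (5.53 TPM), *Arg2* (4.92 TPM), *Arg1* (0.59 TPM), *Nos3* (0.0805 TPM) and *Nos1* (0.0634 TPM). Here *Asl* and *Arg2*, and *Nos3* and *Nos1*, did not differ beyond their spread. *Nos2* thus stood below *Gch1* without the cytokine and above it with the cytokine.

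Pairs of genes were set against each other within each sample, since a sample's total count leaves their ratio almost untouched. The log2 ratio of *Nos2* to *Gch1*, with 0.5 CPM added to each, was -2.90 ± 0.146 with vehicle and 0.52 ± 0.146 with IL-1β (SD, n = 4). The difference was 3.41 (standard error 0.103), and 3.695 with 0.1 CPM added, since *Nos2* was low with vehicle. The log2 ratio of *Gch1* to *Gchfr* was 2.51 ± 0.347 with vehicle and 4.04 ± 0.268 with IL-1β, a difference of 1.54 (standard error 0.219). In both pairs the treated samples were the higher ones without overlap (two-sided exact permutation test, p = 0.0286 and adjusted p = 0.0381 for each). The pair of *Arg2* and *Arg1* was not tested because *Arg1* did not pass the filter. Its log2 ratio of (CPM + 0.5) was 1.31 to 2.15 with IL-1β and -0.35 to 0.21 with vehicle. *Arg1* itself had means of 0.487 and 0.452 CPM with IL-1β and vehicle, so this ratio depends strongly on the 0.5 CPM added.

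**Figure D3:**
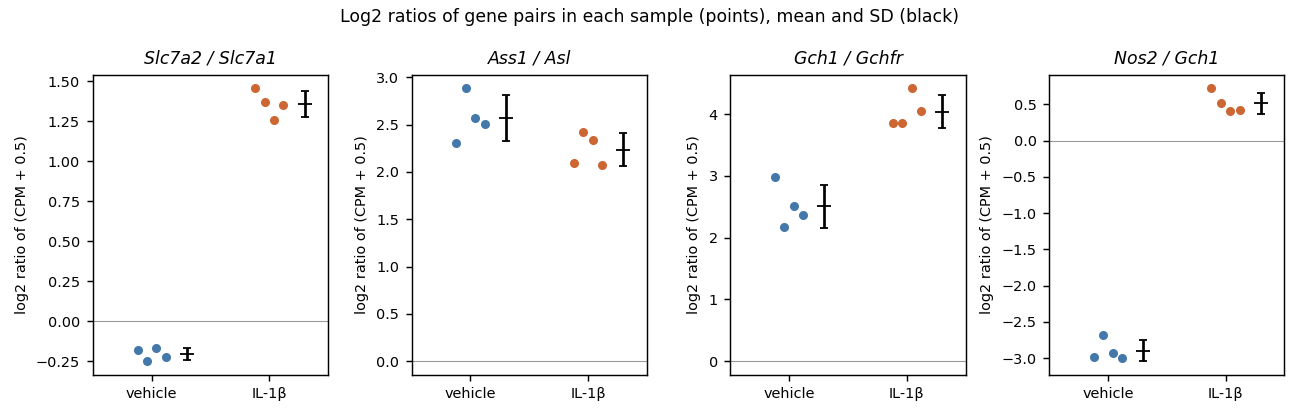
Log2 ratio of (CPM + 0.5) within each sample for 4 pairs of genes (vertical axes with their own scales), in vehicle (blue) and IL-1β (orange) samples, with mean and SD in black. The ratios of *Slc7a2* to *Slc7a1*, *Gch1* to *Gchfr* and *Nos2* to *Gch1* are higher in every IL-1β sample, and the 2 groups overlap for *Ass1* to *Asl*.

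Of 14 partners and inhibitors of the synthases, 12 were tested, with a median log2 fold change of 0.04. Of these 12, 4 were higher and 3 were lower, beside 20.4% higher and 19.8% lower over all genes tested. *Nos1ap*, which encodes an adaptor protein of the neuronal synthase, was the single DEG, with 14.2 ± 0.373 CPM (SD, n = 4) in treated samples against 4.69 ± 0.891 CPM in controls (log2 fold change 1.60, standard error 0.11, adjusted p = 7.79e-13 from edgeR). *Nos1* itself had 1 to 7 counts with IL-1β against 11 to 19 with vehicle. *Hsp90ab1*, a chaperone, had 1557 ± 16.1 and 1352 ± 35.5 CPM (log2 fold change 0.20, adjusted p = 4.26e-07), and the calmodulin gene *Calm2* had 262 ± 4.68 and 274 ± 7.49 CPM (log2 fold change -0.06, adjusted p = 0.11). Further genes of this list were named after their values were seen: *Ddah1* (log2 fold change 0.14) was higher, and *Cav1* (-0.58), *Prmt1* (-0.34) and *Dynll1* (-0.26) were lower.

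The receptor of nitric oxide, soluble guanylate cyclase, was hardly represented. *Gucy1a1* and *Gucy1b1*, its main subunits, had at most 1 and 2 counts in any of the 8 samples, and *Gucy1b2* had at most 2. *Gucy1a2* had 4 to 8 counts with IL-1β and 1 to 9 counts with vehicle. These 4 genes were named after their values were seen. Among genes of nitric oxide removal, *Adh5*, which reduces S-nitrosoglutathione, was the one gene of this list of 8 that was tested, with 108.5 ± 2.62 CPM in treated samples against 109.5 ± 2.38 CPM in controls (SD, n = 4; log2 fold change -0.01, standard error 0.0332, adjusted p = 0.791 from edgeR). *Ngb*, encoding neuroglobin, had at most 6 counts in any sample.

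All 18 genes of ornithine, proline and polyamine metabolism were tested, with a median log2 fold change of -0.16. Of these, 4 were higher and 8 were lower, beside 20.4% higher and 19.8% lower over all genes tested. *Smox*, spermine oxidase, was the single DEG: it rose to 159 ± 4.24 CPM from 43.8 ± 1.3 CPM (SD, n = 4; log2 fold change 1.86, standard error 0.0369, adjusted p = 1.11e-25 from edgeR). *Srm*, spermidine synthase, decreased to 157 ± 6.06 CPM from 189 ± 6.82 CPM (log2 fold change -0.27, adjusted p = 1.72e-07). *Aldh18a1*, which makes the precursor of proline and ornithine from glutamate, decreased to 414 ± 14.2 CPM from 459 ± 11.4 CPM (log2 fold change -0.15, adjusted p = 0.000422). The other 3 higher genes, named after their values were seen, were *Azin2* (log2 fold change 0.59), *Sat1* (0.17) and *Oat* (0.17). Further lower genes, named likewise, were *Pycr1*, a reductase of proline synthesis (log2 fold change -0.44), *Amd1*, which supplies the aminopropyl groups of polyamines (-0.36), *Azin1* (-0.28), *Odc1*, ornithine decarboxylase (-0.23), and *Sms*, spermine synthase (-0.22).

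In the urea cycle and the other uses of arginine, 2 of 8 genes were tested. *Cps1* and *Otc*, the mitochondrial enzymes of the hepatic urea cycle, had 0 counts in all 8 samples. *Glul*, glutamine synthetase, had 7.11 ± 0.842 CPM after IL-1β against 6.06 ± 1.32 CPM in controls (SD, n = 4, log2 fold change 0.24, adjusted p = 0.158 from edgeR) and rested on single samples: the log2 fold change was 0.37 without vehicle replicate 3 (adjusted p = 0.0372) and 0.13 without vehicle replicate 4 (adjusted p = 0.486).

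Over these lists together, 45 of 65 genes were tested, 9 were higher, 15 were lower and 21 did not pass the threshold, with a median log2 fold change of 0.01. Of all genes tested, 40.2% were changed, 20.4% higher and 19.8% lower. The 24 changed genes are 2 upregulated DEGs and 22 genes with changes of less than 2-fold.

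**Figure D4:**
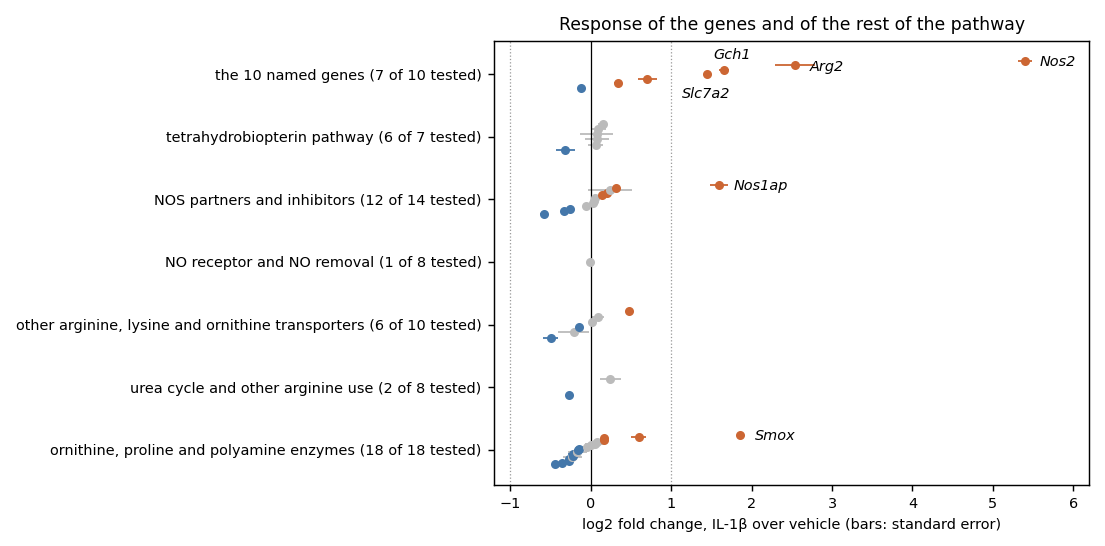
Log2 fold change of IL-1β over vehicle (horizontal axis, bars show the standard error) for the tested genes of each list (rows), in orange or blue where higher or lower at an adjusted p-value under 0.05 and gray otherwise, with dotted lines at -1 and 1. The named points are the DEGs, *Nos2*, *Arg2*, *Gch1* and *Slc7a2* among the 10 genes and *Nos1ap* and *Smox* elsewhere, and the remaining genes lie between -0.58 and 0.70.

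*Nos2* and *Arg1* are also known from macrophages and *Nos3* from endothelium, so markers of such cells were counted. The 10 macrophage and myeloid markers summed to 30.5 to 34.0 CPM with IL-1β and 14.9 to 17.7 CPM with vehicle. Of these, 3 were tested: *Cd14* (log2 fold change 1.86) and *Cd68* (0.67) were higher and *Lyz2* (-0.60) was lower. Without *Cd14* and *Cd68* the sum was 2.48 to 3.42 CPM with IL-1β and 2.54 to 4.07 CPM with vehicle. The 2 left out are the ones called higher, so the remainder could hold no called rise. It cannot show whether such cells increased, which was not tested. *Adgre1*, *Itgam*, *Fcgr1* and *Tyrobp* had at most 3 counts in any sample, and *Ptprc*, the pan-leukocyte marker, had 0 to 6. The 7 endothelial markers summed to 1.06 to 1.66 CPM with IL-1β and 0.865 to 1.78 CPM with vehicle, and none was tested. The 5 neuronal markers summed to 7.73 to 9.09 and 7.56 to 9.59 CPM, nearly all from *Tubb3*, while *Snap25* and *Stmn2* were at 0 in all samples. The 5 synovial and fibroblast markers summed to 56.9 to 60.8 CPM with IL-1β and 37.7 to 40.4 CPM with vehicle, from *Pdgfra* (log2 fold change 0.58) and *Cd34* (0.76), and their part in the results was not tested.

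The genes whose levels followed *Nos2* most closely over the 8 samples were *Man1a*, *Saa3*, *Cxcl5*, *Zc3h12a* and *Cxcl1*, with Pearson's r of log2(CPM + 1) of 0.9997, 0.9997, 0.9997, 0.9996 and 0.9995. Such values describe 2 tight clusters of 4 samples, and 310 genes had an r above 0.99. Their log2 fold changes were 1.21 for *Man1a*, 9.57 for *Saa3*, 4.34 for *Zc3h12a* and 5.17 for *Cxcl1*. *Cxcl5* had 53.7 ± 3.61 CPM in treated samples and was under the limit of detection in controls on average (0.0721 ± 0.0866 CPM), so no fold is given. *Slc7a2*, *Gch1* and *Arg2* had an r with *Nos2* of 0.998, 0.996 and 0.994, and *Ass1* and *Asl* had 0.967 and 0.912.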

How the data were processed

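RNA-Seq of 8 samples was analysed, 4 with IL-1β and 4 with vehicle, grouped by the treatment and numbered by the replicate in their titles. Reads were trimmed (cutadapt), aligned to mm10 (STAR, GENCODE vM20) and assigned to genes (featureCounts) by the authors. The deposited values are whole-number counts, 1 column per sample, next to which the authors deposited each gene's length in bases. Whether these counts precede or follow the RUVseq step named in the methods is not given in the sources used here, nor is the strand setting.

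After TMM scaling, treatment was tested with the quasi-likelihood method of edgeR 4.0.16 (in R 4.3.3, beside limma 3.58.1) over the 14404 genes that had more than 1 CPM in 4 or more samples. The common biological coefficient of variation was 4.11%. Standard errors were taken as the log2 fold change divided by the square root of the F statistic. TPM were computed from the counts and the deposited lengths, over all genes and without TMM. Pairs were compared by exact permutation tests over all 70 assignments, with 0.5 CPM added. The code was tested on simulated data. Python 3.11.15, numpy 2.4.6, pandas 2.3.3 and matplotlib 3.10.9 were used otherwise. Gene positions and exon overlaps are from GENCODE vM21 (GRCm38), in which all 10 genes had the same exon length as in the deposited table. The range of CPM given for 3 counts reflects the total counts of the samples and includes no counting error.

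The 10 genes and all lists were chosen with earlier results of these data known. Named from the lists were the DEGs and the 2 genes with the highest level per length in each, together with the 5 genes most like *Nos2*. Results of some genes in the lists are not reported here. Alternatives were DESeq2 1.42.0, other scalings, other filters on low counts, the replicate block, 1 RUVs factor, 0.1 CPM added to the pairs, CPM in place of levels per length, and each sample left out with the genes tested kept.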

Additional observations from a re-analysis of the deposited data

Results flagged for a closer look

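In the 20 genes named from the 10 genes and the pathway lists that were tested, the highest or lowest of 4 samples was set against the other 3 of its group with Dixon's ratio and its 95% critical value. Chance gives about 1 such sample in 20 groups, or 2 in the 40 groups compared, and 1 was found. For *Nos2*, IL-1β replicate 1 stood at 73.9 CPM, whereas replicates 2 to 4 of the group spanned 64.4 to 65.6 CPM. Without that sample the log2 fold change of *Nos2* was 5.35 (adjusted p = 1.58e-26 from edgeR), against 5.40 with it.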

How the results depend on the processing

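The 7 tested genes kept their direction and their side of the threshold under every alternative that gave a value, and their calls as DEGs did not differ either. The log2 fold change lay between 5.32 and 5.51 for *Nos2*, 1.63 and 1.70 for *Gch1*, 1.42 and 1.47 for *Slc7a2*, 2.43 and 2.64 for *Arg2*, 0.62 and 0.77 for *Asl*, 0.30 and 0.37 for *Ass1*, and -0.13 and -0.10 for *Slc7a1*. With a CPM above 1 required in all 8 samples *Arg2* has no value, leaving 5 genes higher and 3 DEGs. Without a filter on low counts, 2 of the 10 genes were lower and 1 was a downregulated DEG, *Nos1* being added, and 1 pathway gene was a downregulated DEG, *Nostrin* (0 to 5 counts with IL-1β, 8 to 13 with vehicle). The direction turned without vehicle replicate 1 for *Slc3a2* (log2 fold changes of -0.001 to 0.0245 with 1 sample left out) and without vehicle replicate 4 for *Adh5* (-0.0288 to 0.0015), both far from the threshold. The differences within the 4 pairs tested kept their direction and their calls, and lay between 1.53 and 1.60 for *Slc7a2* to *Slc7a1*, -0.42 and -0.23 for *Ass1* to *Asl*, 1.41 and 1.69 for *Gch1* to *Gchfr*, and 3.35 and 3.69 for *Nos2* to *Gch1*. The correlation of deviations between samples of the same replicate number was -0.07 to 0.04, so the numbers were not taken as pairs. With the replicate block, 6 genes were higher and 1 was lower, *Nos2* had a log2 fold change of 5.41 and no call of these genes was changed. At these depths, *Nos1*, *Nos3* and *Arg1* are limited by counting error. The order of levels within a group was not the same in CPM without division by length, where *Slc7a1* stood above *Slc7a2* with vehicle and *Nos2* above *Ass1* with IL-1β.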

Other observations

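The genes next to the 7 tested genes were looked up by position in GENCODE vM21, taking the nearest tested protein-coding gene on each side, and were named for their place after the values were seen. Of these 14 neighbors, 1 was a DEG, *Mtus2* beside *Slc7a1*, which was lower after IL-1β (2.46 ± 0.276 against 7.15 ± 0.731 CPM, SD, n = 4; log2 fold change -1.52, adjusted p = 3.46e-10 from edgeR). Of the 14, 3 were changed and none was called higher, and their log2 fold changes lay between -1.52 and 0.33. Over all genes tested, 40.2% were changed, 20.4% were higher and 5.21% were DEGs. Beside *Nos2*, *Lgals9* lies 2719 bases away and had 3.63 ± 0.445 CPM in treated samples against 4.66 ± 0.714 CPM in controls (log2 fold change -0.35, adjusted p = 0.0575 from edgeR). For *Lyrm9*, on its other side, it was 0.25 (adjusted p = 0.121). Beside *Slc7a2*, *Pdgfrl*, 3903 bases away, was lower, with 3.86 ± 0.758 CPM against 6.84 ± 0.698 CPM (log2 fold change -0.84, adjusted p = 1.18e-05 from edgeR). Beside *Gch1*, *Samd4* was lower by a small step (log2 fold change -0.10, adjusted p = 0.00966) and for *Wdhd1* the value was -0.10 (adjusted p = 0.444).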
